A study of Homo sapiens with 10 samples.

Results

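The numbered zinc finger genes, whose symbols are ZNF followed by a number, were followed in K562 cells, an established human chronic myeloid leukaemia line, while transcription was inhibited. Members are protein-coding genes with such a symbol and a mean of at least 20 labelled reads over the 10 libraries. Of 505 numbered protein-coding ZNF genes listed, 178 reached this minimum, 258 had labelled reads below it and 69 had no labelled read in any library. The minimum is passed by 8817 of 59204 listed genes. Just inside it were ZNF493, ZNF507 and ZNF641 with 20.2, 20.3 and 20.4 labelled reads on average, and just outside it ZNF43, ZNF784 and ZNF534 with 19.9, 19.2 and 19.2. Since mean labelled reads chose the members, their levels are given as a description.

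All cells first received 30 µM 4-thiouridine, a nucleoside built into newly made RNA, for 12 h with the medium exchanged every 3 h, and were then washed into 3 mM uridine. The chase ran for 2, 4 or 8 h with 1 µM AZ-5576, an inhibitor of the elongation kinase CDK9, with 1 µM JQ1, which blocks the bromodomains of BET proteins, or with DMSO as vehicle. A single 0 h library is the start of all 3 arms, and each condition has 1 library (n = 1), so no value has a replicate check. Labelled reads are those deposited as nascent, taken as reads with T-to-C changes left by the incorporated 4-thiouridine, and total reads are all human reads of a gene. Fly RNA was added at 5% to the purified RNA, so levels are given as fly-scaled reads, the reads of a gene for every 1000000 fly reads of the library, which are relative to RNA mass and not to cell number. In bulk libraries such as these, less RNA per cell cannot be told apart from fewer cells that hold it.

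C2H2 zinc finger proteins form the largest group of human transcription factors, and each finger reads a short stretch of DNA. Many of them, clustered on chromosome 19, also carry a KRAB domain, which recruits TRIM28 and through it the histone methyltransferase SETDB1 to silence transposable elements. Others activate promoters, belong to corepressor complexes, or work away from DNA in ribosome assembly, splicing and mitosis. The mRNAs of this family are known as short-lived.

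Libraries held 10293371 to 16008906 total reads, 2031796 to 3868420 labelled reads and 1208073 to 2366155 fly reads. For each fly read there were 8.18 human reads at 0 h, and 9.01, 7.01 and 5.38 at 2, 4 and 8 h in AZ-5576, 7.91, 7.77 and 7.94 in JQ1, against 9.64, 8.87 and 9.08 in DMSO. The globin and erythroid marker list of K562, in which HBG1 and HBG2 were the most abundant, summed to between 83753 and 127533 fly-scaled reads over the libraries. A list of 15 markers of other cell types summed to between 1744 and 4699, of which KRT8 was the largest part. EPCAM, CD3D and LYZ had means of 559, 321 and 178 total reads, the other 9 with reads had means of 0.2 to 40.8, and VWF and KRT5 had no read in any library. By GENCODE v29 coding sequences, the members encode proteins of 76 to 2723 residues with a median of 9 zinc fingers, and 82 of 178 carry a sequence pattern of the KRAB A-box. Other annotated genes overlapped the last 500 bases of 73 members, 25 on the same strand and 52 on the opposite strand, and reads of such genes, and of near-identical copies such as ZNF587 and ZNF587B or ZNF280A and ZNF280B, could be shared.

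The 250 bases before the transcription start are shown for ZNF217, the gene that fell most under AZ-5576, and for the 3 named genes with the most labelled reads whose promoter holds a match to the ETS core, CCGGAAG. Sequences and coordinates are those of RefSeq on GRCh38.p14, read 5′ to 3′ on the strand of the gene, here the minus strand for all of them. ZNF217 is chr20:53593840-53594089, inside an intron of a longer GENCODE v29 transcript of the same gene. ZNF622 is chr5:16465801-16466050, ZNF787 chr19:56121296-56121545 and ZNF335 chr20:45972204-45972453, each just before the first GENCODE exon. Capitals mark matches on either strand to the ETS core, the GC box GGGCGG or the TATA box TATAAA.
ZNF217: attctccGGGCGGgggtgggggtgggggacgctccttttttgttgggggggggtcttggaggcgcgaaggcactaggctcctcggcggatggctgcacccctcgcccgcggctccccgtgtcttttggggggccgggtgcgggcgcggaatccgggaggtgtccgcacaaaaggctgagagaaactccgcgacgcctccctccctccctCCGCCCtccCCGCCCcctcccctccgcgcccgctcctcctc
ZNF622: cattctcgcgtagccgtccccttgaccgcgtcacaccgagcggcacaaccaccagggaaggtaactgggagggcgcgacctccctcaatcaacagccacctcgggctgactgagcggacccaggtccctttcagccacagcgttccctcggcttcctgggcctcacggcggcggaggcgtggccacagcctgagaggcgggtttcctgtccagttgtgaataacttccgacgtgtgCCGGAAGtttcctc
ZNF787: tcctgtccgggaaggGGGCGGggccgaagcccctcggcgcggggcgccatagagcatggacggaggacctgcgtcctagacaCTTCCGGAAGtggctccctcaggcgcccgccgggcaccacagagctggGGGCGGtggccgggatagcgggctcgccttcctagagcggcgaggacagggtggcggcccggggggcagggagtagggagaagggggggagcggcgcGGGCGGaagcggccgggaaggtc
ZNF335: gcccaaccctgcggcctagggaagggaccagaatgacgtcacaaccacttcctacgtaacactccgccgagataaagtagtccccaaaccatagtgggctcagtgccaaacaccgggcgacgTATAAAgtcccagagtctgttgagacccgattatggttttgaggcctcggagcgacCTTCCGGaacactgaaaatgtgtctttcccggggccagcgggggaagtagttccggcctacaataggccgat
The promoter of ZNF217 held 3 GC boxes and no ETS core, whereas that of ZNF787 held 3 GC boxes and 2 overlapping ETS cores on opposite strands. In all, 6 motifs were searched on both strands of the 250 bases before each start, chosen with these data in view, and 158 of 178 members had a RefSeq promoter. An ETS core stood in 56 of 158 member promoters (35.4%), against 18.4% of promoters of all genes tested and 8.82% of all RefSeq promoters. TATAAA stood in 1.90% of member promoters against 5.04% of promoters of genes tested, and GGGCGG in 58.2% against 68.7%. For CCAAT the shares were 44.3% and 36.6%, for CACGTG, the E-box, 7.59% and 9.51%, and for the NRF1 core GCATGCGC 6.96% and 5.53%. A match is a description of these letters and no test was made of it. Members with an ETS core had a median half-life of 2.27 h and those without 2.52 h, and at 8 h of AZ-5576 their median total level was 21.8% and 17.8% of DMSO.

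Labelling of the family at the end of the pulse came first. Of the members' reads at 0 h, 52.3% were labelled, against 32.0% of all human reads. The median member had a labelled share of 58.0% (quartiles 47.2% and 67.5%), and the median of all 8817 genes was 53.8%. A share of at least 50% was reached by 125 of 178 members (70.2%), where 57.7% of all genes reached it. The highest shares were those of ZNF407 with 85.0%, ZNF468 with 81.9% and ZNF587B with 81.5%, and the lowest those of ZNF581 with 18.4%, ZNF90 with 19.4% and ZNF787 with 21.8%, 6 genes named after their values were seen. For ZNF90 the exact 95% interval was 17.8% to 21.1%, and for ZNF830 with 80.8% it was 72.9% to 87.2%, so these differ by more than counting error. Shares moved with the T content of the read end of the transcript. Ordered by T content and cut at the quartiles, the 45 members with the least T in the last 250 bases (16.4% to 25.2%) had a median share of 44.7%, the next groups 57.6% and 61.4%, and the 45 with the most T (37.2% to 48.8%) 66.4%. Across the same groups the median half-life was 2.24, 2.72, 2.40 and 2.68 h. How much of the difference in shares comes from T content was not tested.

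**Figure D1:**
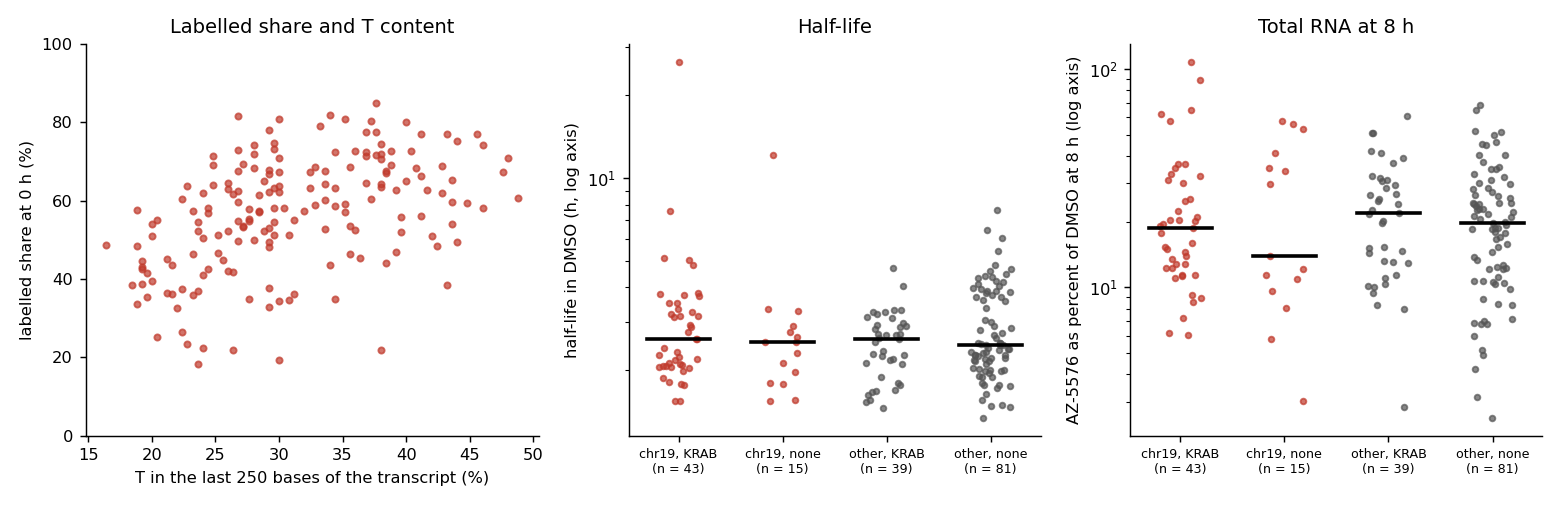
Left, the labelled share of reads at 0 h in percent for each of the 178 members against the percentage of T in the last 250 bases of its transcript. Middle and right, the half-life of labelled RNA in DMSO in hours and the total level in AZ-5576 as a percentage of DMSO at 8 h, on log axes, for members on chromosome 19 and elsewhere, with or without the KRAB pattern, 1 point per gene with the median as a bar. The half-life medians of the 4 groups lie between 2.47 and 2.60 h.

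In DMSO the labelled RNA of the family was lost within hours, while the summed total level stood at 128%, 125% and 129.6% of 0 h at 2, 4 and 8 h. Summed over the members, labelled fly-scaled reads were 23174 at 0 h and 21214, 11081 and 4259 at 2, 4 and 8 h in DMSO, so that 18.4% of the 0 h level remained at 8 h, against 45.8% for all labelled reads. Total reads of the members were 44299 at 0 h and 56743, 55569 and 57427 at the same times. The labelled share of the members fell to 37.4%, 19.9% and 7.42%. For each gene the loss was taken as linear in time on the log2 scale and fitted with edgeR's quasi-likelihood test and Benjamini-Hochberg adjustment over all genes tested. The half-life is the inverse of that slope, in which growth of the culture is included. In the median member the labelled level was 88.9%, 41.9% and 11.8% of 0 h at 2, 4 and 8 h of DMSO. For the median of all genes it was 106%, 66.1% and 34.1%. Little label was thus lost by 2 h, so a half-life here is an average over the chase and not a constant rate. The slope was below 0 at an adjusted p under 0.05 for 177 of 178 members, and above 0 for none, where 88.3% of all genes were below and 0.0454% above. The one member that did not pass was ZNF90. Without the DMSO library at 8 h, 120 members passed as below 0, where 3355 of all 8817 genes did.

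The median half-life of a member was 2.49 h (quartiles 2.04 and 3.30 h), against 4.45 h for all 8817 genes. Under 2 h lay 41 members (23.0%), where 5.08% of all genes lay, and under 4 h 155 members (87.1%), where 42.6% of all genes lay. Other zinc finger families had medians of 2.28 h (ZBTB, 20 genes tested), 2.14 h (ZFP, 6 genes), 2.70 h (ZKSCAN, 4 genes) and 2.53 h (ZSCAN, 9 genes). The 15 tested genes of 16 in a list of KRAB corepressors, which includes SETDB1, CBX1, CBX3, CBX5, HDAC1, HDAC2, DNMT1, ATF7IP, MORC2 and MPHOSPH8, had a median half-life of 7.40 h and ranged from 2.10 h for ATF7IP to 30.5 h for HDAC1, with SETDB1 at 4.09 h. TRIM28 was not tested, since its deposited count averaged 2.1 total reads. The annotation used for counting is not given, so this count is not read as the gene's level in K562 cells.

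**Figure D2:**
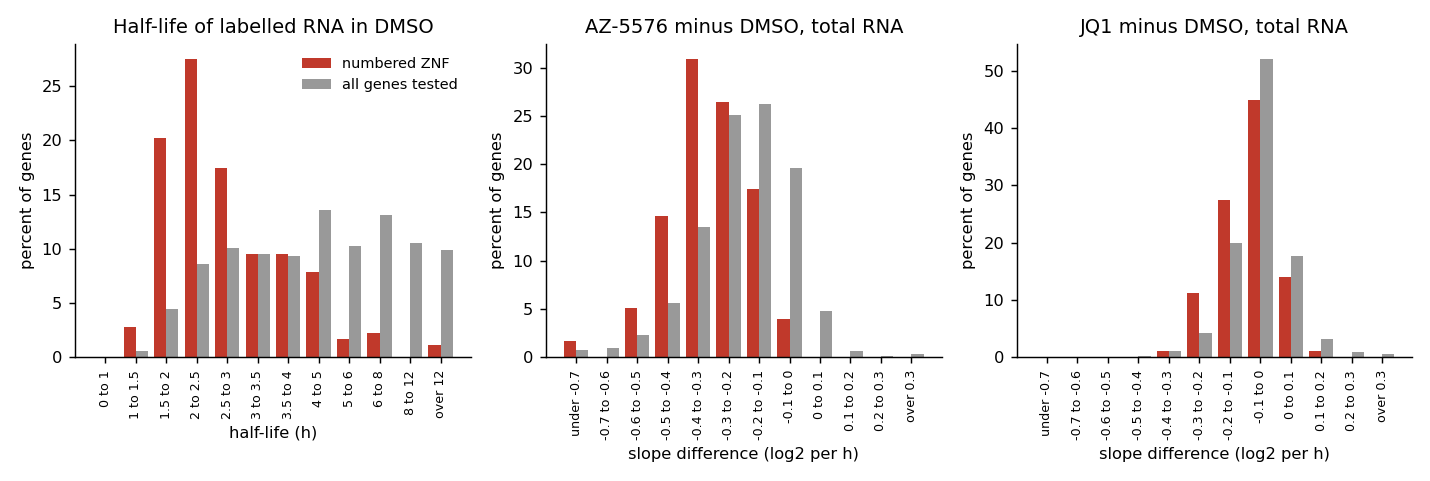
Percentage of genes in bins of the DMSO half-life of labelled RNA in hours (left) and of the slope difference of total RNA in log2 per hour for AZ-5576 minus DMSO (middle) and JQ1 minus DMSO (right), for the 178 numbered ZNF genes and for all genes tested. The members peak at 2 to 2.5 h with 27.5% of genes, where 8.61% of all genes lie, and at -0.4 to -0.3 log2 per hour under AZ-5576.

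Among members with a mean of at least 100 labelled reads, the shortest half-life was that of ZNF622, a factor of cytoplasmic 60S ribosome maturation, at chr5:16451519-16465792. Its labelled fly-scaled reads were 273 at 0 h and 233, 52.6 and 8.51 at 2, 4 and 8 h in DMSO, a half-life of 1.5 h (slope -0.67 ± 0.05 log2 per hour, SE). ZNF593, which acts in the biogenesis of the 60S subunit, had 439 at 0 h and then 370.0, 90.6 and 31.8, a half-life of 1.76 h. In both genes of ribosome assembly each later DMSO library was lower than the one before. ZNF787, ZNF3 and ZNF282, a KRAB repressor first described on a retroviral promoter, followed with 1.78 h, 1.99 h and 2.10 h.

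At the other end stood ZNF90, a KRAB gene of the chromosome 19 cluster (chr19:20077994-20127076, plus strand). It had 295 labelled fly-scaled reads at 0 h and 372, 299.7 and 269 at 2, 4 and 8 h in DMSO, with a slope of -0.04 ± 0.03 log2 per hour (adjusted p = 0.28, edgeR). Its labelled share stayed between 19.3% and 24.9% in all 10 libraries, unlike the family sum. AC011447.1, a transcribed processed pseudogene annotated on the same strand, overlaps ZNF90 and had no count of its own. How far the reads of ZNF90 come from it was not tested. ZNF428 followed with 12.1 h, ZNF706 with 7.63 h, ZNF638, which takes the HUSH silencing complex to retroviral DNA, with 6.48 h, and ZNF326, which couples elongation to splicing in the DBIRD complex, with 5.40 h. ZNF428 had 624 labelled fly-scaled reads at 0 h and 771, 577 and 445 at the later DMSO times. Without the DMSO library at 8 h the slopes of ZNF428, ZNF638 and ZNF326 no longer passed (adjusted p = 0.53, 0.36 and 0.12, edgeR).

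With DMSO alone, total RNA of the members rose over the chase for 33 genes and fell for 3, where 24.5% of all genes rose and 3.78% fell (edgeR slopes, adjusted p under 0.05). The 3 that fell were ZNF557, ZNF35 and ZNF622. Of the 7815 protein-coding genes that pass the labelled minimum, members included, 2332 rose and 247 fell. Without the DMSO library at 8 h 9 members rose and 0 fell, where 458 of all 11797 genes rose and 13 fell. With TMM scaling 22 members rose and 19 fell, where 18.2% of all genes rose and 14.5% fell. The largest rises among genes with a mean of at least 100 total reads were ZNF280A with 0.27 ± 0.06, ZNF32 with 0.22 ± 0.05 and ZNF507 with 0.22 ± 0.06 log2 per hour (SE), chosen after their values were seen. A change against DMSO below is therefore measured against a vehicle arm that itself moved, by a median of 0.05 log2 per hour over the members.

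Total RNA of almost the whole family fell under AZ-5576. The members summed to 41680.2, 26194 and 15292 fly-scaled reads at 2, 4 and 8 h of AZ-5576, against 56743, 55569 and 57427 in DMSO, which is 73.5%, 47.1% and 26.6% of DMSO, while all human reads were at 93.5%, 79.1% and 59.3%. The median member stood at 68.1%, 40.0% and 19.7% of DMSO, and the median of all genes tested at 84.0%, 62.9% and 32.1%. Every AZ-5576 slope was below that of DMSO, and 172 of 178 members passed the test as lower and 0 as higher, where 73.3% of all genes tested were lower and 0.559% higher (edgeR slopes, adjusted p under 0.05). Of the 7815 protein-coding genes past the labelled minimum, the set most like the members, 6566 were lower and 6 higher. The same count is the background for the lists of members below. The median slope difference was -0.31 log2 per hour for members and -0.19 for all genes. By sign alone, 164, 177 and 177 members were below DMSO at 2, 4 and 8 h, where 75.4%, 86.9% and 94.0% of all genes were. Only 18 members passed when the arms were compared over separate time levels, where 2.38% of all genes were lower and 0.0848% higher. That model gives each inhibitor a constant offset from DMSO and leaves 4 residual degrees of freedom. In that model 140 members had an unadjusted p under 0.05, and 5198 of all 11797 genes. With TMM scaling in place of the fly reads, which moves every gene by 1.36 log2 at 8 h, 113 members were lower and 8 higher, where 29.9% of all genes were lower and 18.7% higher.

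**Figure D3:**
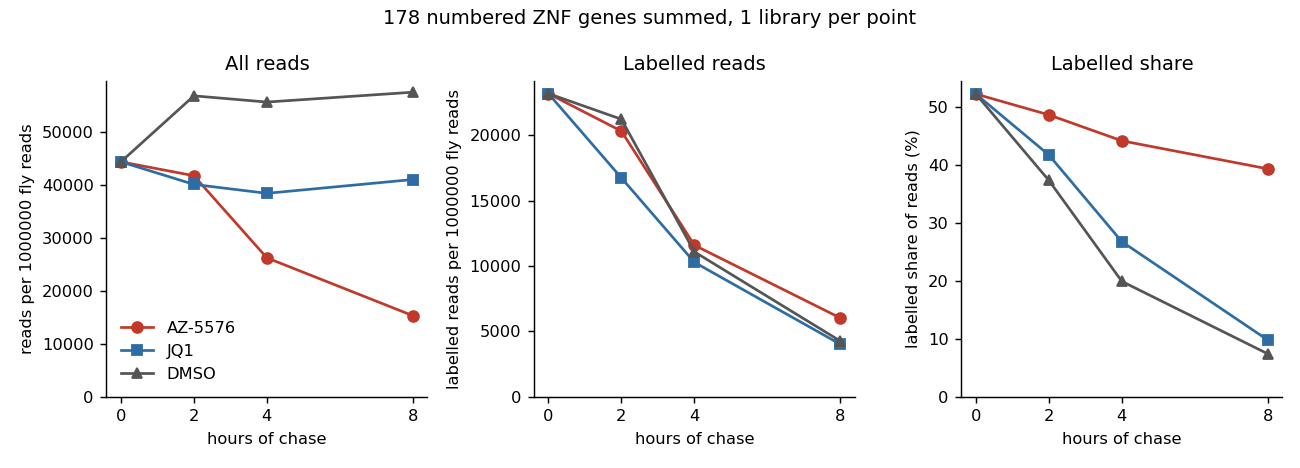
Reads summed over the 178 members for all reads (left) and labelled reads (middle), and the labelled share of their reads in percent (right), against hours of chase, 1 library per point, in AZ-5576, JQ1 and DMSO from a shared 0 h library. The AZ-5576 arm ends at 15292 total fly-scaled reads and a labelled share of 39.4%, and the DMSO arm at 57427 and 7.42%.

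ZNF217, a repressor that works with the CoREST and LSD1 corepressors and is amplified in breast cancer, fell most (chr20:53567065-53609907, minus strand). It had 84.5 total fly-scaled reads at 0 h. At 2, 4 and 8 h it had 23.5, 7.49 and 3.38 in AZ-5576, against 84.4, 107 and 134 in DMSO. The AZ-5576 libraries were thus the lowest at every time, and the last of them held 8 reads. The slope difference was -0.75 ± 0.07 log2 per hour (SE, adjusted p = 1.8e-08, edgeR), and the 8 h level was 2.53% of DMSO (95% interval 1.08% to 5.06%, counting error only).

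ZNF296 (chr19:45071500-45076588, minus strand) had 137 fly-scaled reads at 0 h, then 41.1, 20.4 and 12.7 in AZ-5576, against 401, 276 and 419 in DMSO. Its DMSO libraries stood above 0 h and its AZ-5576 libraries below it, with a slope difference of -0.75 ± 0.07 log2 per hour. ZNF830, a protein of the spliceosome, had 87.9 at 0 h, then 60.2, 10.9 and 5.07 in AZ-5576, against 188, 162 and 160.5 in DMSO, and ended at 3.16% of DMSO. In ZNF574 and ZNF280A the AZ-5576 level at 8 h was 5.81% and 8.43% of DMSO. These 5 genes stayed past the threshold in each fit that left out 1 library and with TMM scaling.

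All 6 members of a list of promoter-binding factors fell, to between 7.17% and 26.1% of DMSO at 8 h, where 73.3% of all genes tested were lower. They are ZNF143, which binds promoters at chromatin loops, ZNF148 and ZNF281, which bind GC-rich sites, ZNF384, a gene fused in acute leukaemia, ZNF410, a regulator of CHD4 and so of fetal globin, and ZNF335, which associates with histone H3K4 methyltransferases. ZNF281 had 249 fly-scaled reads at 0 h, then 104, 31.3 and 21.1 in AZ-5576, against 324, 292 and 295 in DMSO. ZNF410 had 134 at 0 h, then 147, 89.2 and 48.2 in AZ-5576, against 141, 209 and 223 in DMSO, the AZ-5576 library being above DMSO only at 2 h. ZNF335 and ZNF384 did not pass without the AZ-5576 library at 8 h (adjusted p = 0.082 and 0.079, edgeR) or with TMM scaling (adjusted p = 0.077 and 0.051).

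All 6 members of a corepressor list also fell, to between 2.53% and 21.0% of DMSO, against the same 73.3% of all genes. Besides ZNF217 these are ZNF687 and ZNF592, which bind ZMYND8, ZNF644, a partner of the H3K9 methyltransferases G9a and GLP, and ZNF518A and ZNF518B. ZNF592 had 278 fly-scaled reads at 0 h, then 348, 159 and 71.4 in AZ-5576, against 405, 602 and 517 in DMSO. ZNF518B had 252 at 0 h, then 199, 125 and 56.6 in AZ-5576, against 335, 402 and 545 in DMSO. For both, the AZ-5576 library was below DMSO at each time.

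The 10 members of a list of RNA, ribosome, mitosis and SUMO functions fell as well, to between 3.16% and 52.1% of DMSO, again where 73.3% of all genes were lower. ZNF207, the spindle assembly factor BuGZ and the member with the most labelled reads, had 2642 fly-scaled reads at 0 h, then 3341, 2133 and 1209 in AZ-5576, against 3352, 3181 and 2319 in DMSO (-0.12 ± 0.03 log2 per hour, adjusted p = 0.0021, edgeR), and its sign turned to 0.048 with TMM scaling. ZNF598, the ubiquitin ligase of collided ribosomes, ended at 34.9% of DMSO, ZNF451, a SUMO ligase, at 17.7%, ZNF346, which binds double-stranded RNA, at 25.6% and ZNF330, a nucleolar protein, at 32.0%. Without the AZ-5576 library at 8 h, ZNF207, ZNF326, ZNF346 and ZNF598 no longer passed (adjusted p = 0.36, 0.2, 0.32 and 0.13, edgeR). ZNF326 and ZNF346 also did not pass without the DMSO library at 8 h (adjusted p = 0.071 and 0.15, edgeR). ZNF326 and ZNF428 also changed sign with TMM scaling, to 0.03 and 0.06 log2 per hour. With that scaling ZNF330, ZNF346, ZNF598 and ZNF622 kept a slope difference below 0 but no longer passed, at -0.04, -0.04, -0.01 and -0.08 log2 per hour (adjusted p = 0.11, 0.43, 0.7 and 0.053, edgeR).

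Of 6 listed KRAB genes with known repeat or imprinting targets, 3 were members and all 3 fell, where 73.3% of all genes did. ZNF274, which takes SETDB1 to the 3′ ends of other ZNF genes, had 133 fly-scaled reads at 0 h, then 115, 43.6 and 15.2 in AZ-5576, against 121, 162 and 138 in DMSO. ZNF445, a guardian of imprints, had 139 at 0 h, then 124, 60.6 and 22.0 in AZ-5576, against 163, 155 and 218 in DMSO. ZNF93, which binds LINE-1 and SVA elements, ended at 32.3% of DMSO (95% interval 22.6% to 45.6%) and did not pass without the AZ-5576 library at 8 h (adjusted p = 0.24, edgeR) or with TMM scaling (adjusted p = 0.52). The abundant members ZNF24, ZNF146 and ZNF770 ended at 29.6%, 13.9% and 11.2%.

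The 6 members that did not pass as lower were ZNF90, ZNF664, ZNF714, ZNF749, ZNF467 and ZNF846. ZNF90 had 1518 fly-scaled reads at 0 h, then 1309, 1223 and 1081 in AZ-5576, against 1925, 1229 and 1215 in DMSO, so the arms met at 4 h. ZNF749 had 155 at 0 h, then 119, 79.7 and 82.4 in AZ-5576, against 166, 79.7 and 76.6 in DMSO, the one member above DMSO at 8 h (108%, 95% interval 86.0% to 135%). In the other 4 the 8 h level was between 56.2% and 68.3% of DMSO.

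**Figure D4:**
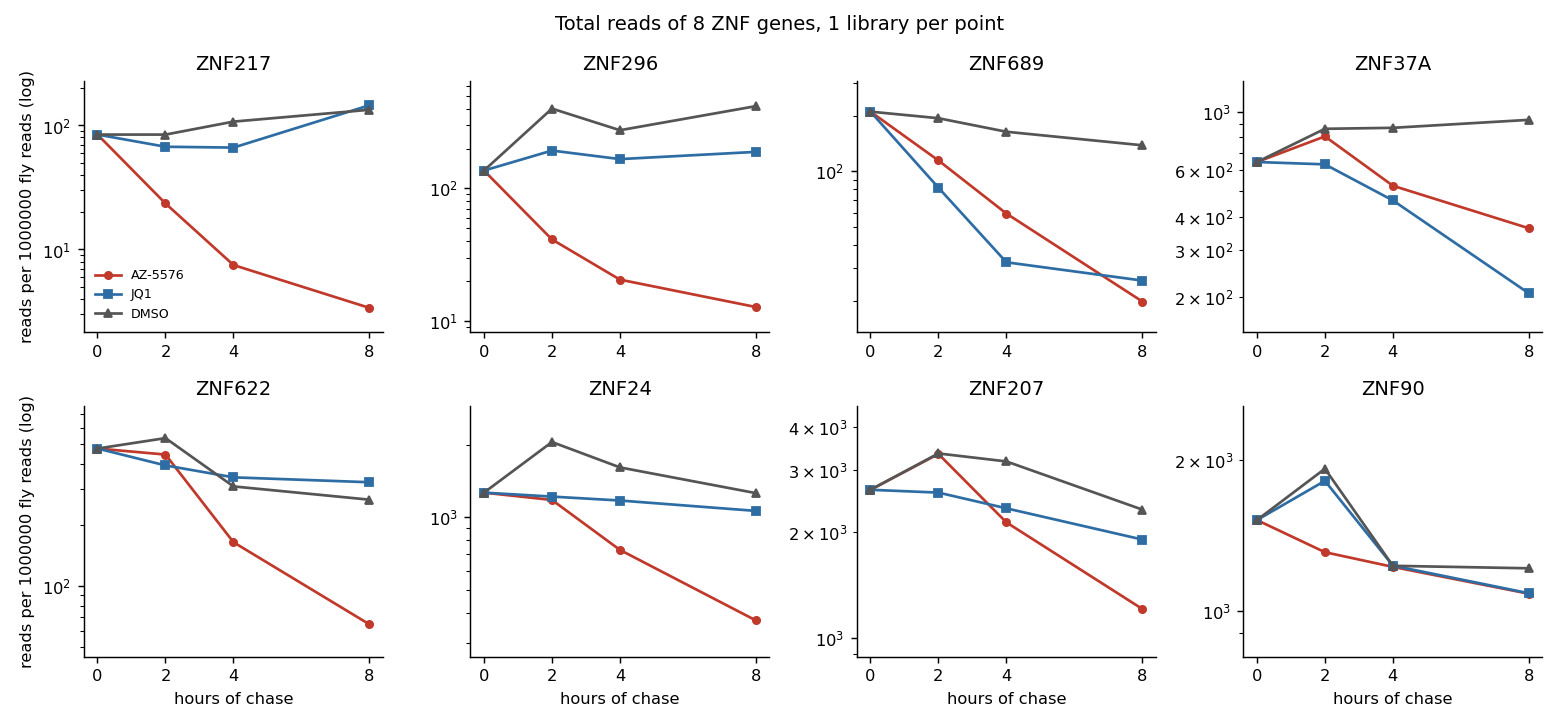
Total fly-scaled reads on a log axis against hours of chase for 8 members, 1 library per point, in AZ-5576, JQ1 and DMSO from a shared 0 h library. In ZNF217 and ZNF296 the AZ-5576 points lie far below the others, in ZNF37A the JQ1 points are lowest from 2 h on, and in ZNF90 the arms lie close together at 4 and 8 h.

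Within the family, the level left by AZ-5576 differed along half-life, read number and T content. In the 45 members with half-lives of 1.34 to 2.04 h the median AZ-5576 level at 8 h was 17.7% of DMSO, in the next quartile groups 15.5% and 24.5%, and in the 45 with 3.30 h or more 25.4%. By mean labelled reads, the lowest group was at 12.3% and the next ones at 15.3%, 22.8% and 25.2%. These are descriptions, since both orders use labelled reads of the same libraries.

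Under JQ1 the total RNA of the family was lower than in DMSO from 2 h on. The members summed to 40040.1, 38361 and 40966 fly-scaled reads at 2, 4 and 8 h of JQ1, against 56743, 55569 and 57427 in DMSO, which is 70.6%, 69.0% and 71.3% of DMSO, while all human reads were at 82.1%, 87.7% and 87.4%. The median member was at 70.1%, 67.4% and 74.7% of DMSO, and the median of all genes tested at 79.8%, 82.1% and 80.6%. As slopes, 51 members passed as lower and 1 as higher, where 16.2% of all genes tested were lower and 1.79% higher (edgeR, adjusted p under 0.05). Of the 7815 protein-coding genes past the labelled minimum, 1532 were lower and 109 higher. By sign, 164, 161 and 139 members were below DMSO at 2, 4 and 8 h, where 82.4%, 75.7% and 72.3% of all genes were. None passed over separate time levels, in which 0% of all genes were lower. There 30 members had an unadjusted p under 0.05, and 1081 of all 11797 genes. The biological coefficient of variation of that model was 0.362 for total reads, against 0.205 for slopes. It is shared by all arms, and a constant offset does not follow the AZ-5576 difference, which grew with time. No conclusion on JQ1 is therefore drawn from this model. Without the DMSO library at 8 h 9 members were lower, where 170 of all 11797 genes were. Without the JQ1 library at 4 h 33 members were lower, where 1245 of all genes were. With TMM scaling 25 members were lower and 4 higher, where 7.92% and 5.51% of all genes were. The one member that rose was ZNF654, with 54.1 fly-scaled reads at 0 h, then 39.9, 63.6 and 99.1 in JQ1, against 34.8, 38.7 and 38.6 in DMSO.

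ZNF689 (chr16:30602558-30624012, minus strand), a KRAB gene, fell most under JQ1. It had 210.2 fly-scaled reads at 0 h, then 81.7, 32.3 and 25.8 in JQ1, against 194, 164 and 138 in DMSO. Each JQ1 library was below its DMSO library, and the slope difference was -0.37 ± 0.05 log2 per hour (SE, adjusted p = 1.1e-04, edgeR). The same gene in AZ-5576 had 115, 59.3 and 19.9.

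ZNF32 had 46.0 fly-scaled reads at 0 h, then 46.2, 41.7 and 25.8 in JQ1, against 78.6, 85.5 and 205 in DMSO. ZNF239, its neighbour on chromosome 10, had 81.1 at 0 h, then 54.9, 28.5 and 46.4 in JQ1, against 94.4, 89.2 and 209 in DMSO. Both genes stood highest in the DMSO library at 8 h, and without that library neither passed (adjusted p = 0.13 and 0.27, edgeR). ZNF692, an AICAR-responsive repressor, had 211 at 0 h, then 126, 97.0 and 64.7 in JQ1, against 210.3, 243 and 309 in DMSO, and its adjusted p (edgeR) was 0.053 without the DMSO library at 8 h.

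ZNF37A (chr10:38094334-38150293, plus strand), also with the KRAB pattern, had 645 fly-scaled reads at 0 h. At 2, 4 and 8 h it had 632, 462 and 206 in JQ1, against 861, 868 and 931 in DMSO, and 806, 524 and 362 in AZ-5576. Each JQ1 library was thus below the AZ-5576 library of its time.

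Between the inhibitors, 143 members had a lower slope in AZ-5576 than in JQ1 and 2 a higher one, where 55.0% of all genes tested were lower and 0.822% higher (edgeR slopes, adjusted p under 0.05). The 2 were ZNF37A, with 0.09 ± 0.03 log2 per hour (adjusted p = 0.019), and ZNF467, a regulator of adipocyte differentiation in mouse, with 0.18 ± 0.05 (adjusted p = 0.0048). ZNF467 had 128 fly-scaled reads at 0 h, then 125, 72.2 and 51.1 in AZ-5576, against 79.2, 40.0 and 21.8 in JQ1 and 111, 77.5 and 74.9 in DMSO. Of the 7815 protein-coding genes past the labelled minimum, 5019 had a lower slope in AZ-5576 than in JQ1 and 39 a higher one. With TMM scaling 86 members were lower and 14 higher, where 28.1% and 19.7% of all genes were. Over separate time levels 4 members were lower, where 1.17% of all genes were lower and 0.017% higher. Without the AZ-5576 library at 8 h 73 members were lower and 0 higher, where 1947 of all 11797 genes were lower and 21 higher. Without the JQ1 library at 8 h 60 members were lower and 2 higher, where 2646 of all genes were lower and 13 higher. The inhibitors act on different proteins at the same concentration, and the 0 h library enters both slopes.

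Labelled reads of the family differed less between the arms than total reads did. The members' labelled reads summed to 20305, 11586 and 6023 in AZ-5576 and 16729, 10280.3 and 4013 in JQ1, against 21214, 11081 and 4259 in DMSO. As labelled shares of the members' reads this is 48.7, 44.2 and 39.4% in AZ-5576 and 41.8, 26.8 and 9.80% in JQ1, against 37.4, 19.9 and 7.42% in DMSO. At 8 h AZ-5576 thus held 141% of the labelled level of DMSO at 26.6% of the total level. For all labelled reads, 52.5% of the 0 h level remained at 8 h of AZ-5576 and 45.8% in DMSO. The labelled slope was lower in AZ-5576 than in DMSO for 4 members and higher for 10, where 1.22% of all genes were lower and 3.53% higher. Over separate time levels none passed (24 members had an unadjusted p under 0.05, and 1000 of all 8817 genes). Without the AZ-5576 library at 8 h 0 members were lower and 0 higher, where 22 of all genes were lower and 6 higher. Without the DMSO library at 8 h 2 members were lower and 0 higher, where 33 of all genes were lower and 2 higher. With TMM scaling 1 member was lower and 140 higher, where 0.306% of all genes were lower and 86.1% higher.

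The 4 members whose labelled RNA fell faster under AZ-5576 were ZNF217, ZNF574, ZNF830 and ZNF670. ZNF217 had 56.8 labelled fly-scaled reads at 0 h, then 14.0, 2.72 and 0.845 in AZ-5576, against 26.5, 24.8 and 3.40 in DMSO (-0.46 ± 0.13 log2 per hour, adjusted p = 0.012, edgeR). ZNF830 had 71.0 at 0 h, then 44.8, 6.13 and 2.11 in AZ-5576, against 91.1, 21.9 and 8.51 in DMSO. In both, the AZ-5576 library was below DMSO at each time.

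The 10 whose labelled RNA fell more slowly were ZNF3, ZNF37A, ZNF480, ZNF24, ZNF622, ZNF467, ZNF397, ZNF316, ZNF408 and ZNF343. ZNF24, a SCAN-domain factor, had 705 labelled fly-scaled reads at 0 h, then 627, 391 and 182 in AZ-5576, against 781, 261 and 64.1 in DMSO (0.16 ± 0.04 log2 per hour, adjusted p = 0.0021, edgeR). ZNF622 had 273 at 0 h, then 261, 81.1 and 28.3 in AZ-5576, against 233, 52.6 and 8.51 in DMSO. In both, the AZ-5576 level was above DMSO at 4 and 8 h.

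With JQ1, labelled RNA fell faster than in DMSO for 2 members, ZNF689 and ZNF202, and more slowly for none, where 0.352% and 0.318% of all genes did. An unadjusted p under 0.05, in either direction, was found for 18 members and 657 of all 8817 genes. ZNF689 had 122 labelled fly-scaled reads at 0 h, then 47.4, 11.5 and 1.15 in JQ1, against 81.1, 20.5 and 14.7 in DMSO (-0.39 ± 0.08 log2 per hour, adjusted p = 0.001, edgeR). ZNF202, a repressor of lipid genes, had 79.7 at 0 h, then 48.0, 13.2 and 0 in JQ1, against 66.2, 25.6 and 9.07 in DMSO, and its last JQ1 library had no labelled read. Neither passed without the JQ1 library at 4 h, the JQ1 library at 8 h or the DMSO library at 8 h.

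On chromosome 19 lie 58 of the members and 120 lie elsewhere. The KRAB pattern was found in 43 of the 58 and in 39 of the 120, and the median number of fingers was 12 and 8. The median half-life was 2.52 h on chromosome 19 and 2.48 h elsewhere, and the upper quartiles were 3.28 and 3.31 h. AZ-5576 left a median of 18.2% of DMSO at 8 h on chromosome 19 and 20.3% elsewhere, with 54 of 58 and 118 of 120 passing as lower. For JQ1 the medians were 74.4% and 75.0%, with 12 of 58 and 39 of 120 passing. Of all genes tested, 73.3% were lower under AZ-5576 and 16.2% under JQ1. Of the 7815 protein-coding genes past the labelled minimum, 6566 and 1532 were lower. The median labelled share at 0 h was 54.8% on chromosome 19 and 59.4% elsewhere. No test was made of these differences, since genes are not replicates of a condition.

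By domain, the 82 members with the KRAB pattern had a median half-life of 2.59 h and the 96 without it 2.47 h, and at 8 h of AZ-5576 stood at 19.9% and 19.5% of DMSO. JQ1 passed as lower for 5 of 43 KRAB members on chromosome 19 and for 17 of 39 KRAB members elsewhere, with median levels of 78.5% and 63.4% of DMSO at 8 h. In members without the pattern the same counts were 7 of 15 on chromosome 19 and 22 of 81 elsewhere. Their median levels went the other way, at 57.2% and 76.4% of DMSO. Under JQ1 16.2% of all genes tested were lower, and 1532 of the 7815 protein-coding genes past the labelled minimum. These counts were not compared by a test. Over the local clusters of chromosome 19, the 8 members between 7069444 and 9793180 had a median half-life of 2.08 h, and the 9 members between 19668796 and 24129961, ZNF90 among them, 3.20 h. In the clusters at 51571298 to 53580269, with 14 members, and at 55476332 to 58481230, with 13, it was 2.67 and 2.52 h. At 8 h of the inhibitors the medians of these 4 clusters were 16.3%, 19.5%, 18.2% and 19.01% of DMSO in AZ-5576, and 74.6%, 101%, 84.7% and 72.5% in JQ1. The 2 clusters with 5 members each, at 36182060 to 37817300 and 43525497 to 45076588, had median half-lives of 2.74 and 3.32 h and stood at 13.9% and 9.64% of DMSO in AZ-5576 and at 59.7% and 61.4% in JQ1. The other 4 members lay in clusters with no further member.

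Around the family, AZ-5576 lowered 31 of 31 tested ZBTB genes, 10 of 12 ZFP, 6 of 6 ZKSCAN and 11 of 12 ZSCAN genes, and 14 of 15 KRAB corepressor genes, where 73.3% of all genes were lower. JQ1 lowered 7, 4, 0 and 1 of those families, where 16.2% of all genes were lower, and 4 of the corepressor genes, SETDB1, SMARCAD1, CHD3 and HDAC1, while CBX5 rose. SETDB1, the methyltransferase brought in by KRAB proteins, had a slope difference of -0.38 log2 per hour under AZ-5576 and -0.22 under JQ1. At 8 h of AZ-5576 the ZNF members stood at a median of 19.7% of DMSO, and the corepressor genes as a list at 23.6%.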

How the data were processed

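Of 10 K562 libraries (1 per condition), the authors deposited raw read counts per gene for all human reads, for reads they named nascent and for fly reads. The submitters' notes name the builds hg38 and dm6 and the tools bedtools, Trim Galore 0.6.5 and bcl2fastq 2.17.1.14. The aligner, the counting tool, the annotation and the rule for nascent reads are not given in the sources used here. No column was left unmapped to a library.

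The counts of all genes with a mean of at least 20 (11797 for total, 8817 for labelled reads) were fitted with edgeR 4.0.16 in R 4.3.3 (quasi-likelihood test), the fly total as library size, a common 0 h level and 1 slope per arm. This leaves 6 residual degrees of freedom, so p-values measure scatter about straight lines, not replicates, and that scatter may be technical. P-values were adjusted by Benjamini-Hochberg over all genes tested, with a threshold of 0.05. The biological coefficient of variation was 0.205 for total and 0.188 for labelled reads. Ratios used a pseudocount of 0.5 reads where stated as log2. Exact 95% intervals (Clopper-Pearson) cover counting error only, since reads without molecular identifiers are not independent molecules. The fits were also run on simulated counts, drawn from straight slopes with the spread that the same model fitted. Such counts cannot show how far the real courses leave a straight line.

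Gene positions, coding sequences and overlaps are from GENCODE v29 (GRCh38). Clusters on chromosome 19 join listed ZNF genes less than 1000000 bases apart. Members, lists and alternatives were chosen with earlier results of these data known. Named genes are the 5 largest falls under each inhibitor, the 5 shortest and 5 longest half-lives, the 5 most labelled members and 4 lists by function, with a mean of at least 100 reads in the first sets, and exceptions are stated where they appear. No member of that mean rose in total RNA under an inhibitor. Alternatives were TMM scaling, DESeq2 1.42.0, no filter, a minimum of 50, separate time levels, only the arms compared, and leaving out each library. The model of separate time levels has a constant offset for each inhibitor.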

Additional observations from a re-analysis of the deposited data

How the results depend on the processing

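No paired analysis was possible because each condition has 1 library. Members past the threshold, lower and higher together, numbered 172 for total RNA under AZ-5576 against DMSO, 18 over separate time levels and 102 of the 105 members that no other gene overlaps in the last 500 bases, an alternative chosen after seeing the data. The count was 52 for JQ1 against DMSO, 0 over time levels and 29 with TMM scaling, and 145 for AZ-5576 against JQ1 and 4 over time levels. For labelled RNA under AZ-5576 it was 14, against 9 with DESeq2, 6 at a minimum mean of 50 (95 members tested), 8 with no filter, 7 with only the arms compared, 0 over time levels and 141 with TMM scaling. Under JQ1 it was 2, against 1 at the minimum of 50, 1 with no filter, 1 with TMM scaling and 0 over time levels. At the minimum of 50, 94 of 95 labelled DMSO slopes passed. Leaving out 1 library gave 124 to 174 members for AZ-5576 against DMSO, 9 to 64 for JQ1 against DMSO, 62 to 152 for AZ-5576 against JQ1, 9 to 45 for the total DMSO slope, 120 to 177 for the labelled DMSO slope, and 0 to 19 and 0 to 4 for labelled RNA under AZ-5576 and JQ1. Counts over all genes moved too: without the AZ-5576 library at 8 h, 3930 of 11797 were lower than in DMSO, against 8643 with it. Chromosome 19 minus other members differed by 0.050 h in median half-life and -0.023 log2 per hour in AZ-5576 slope, and by -0.062 h and 0.015 at the minimum of 50, so neither sign is stable. The 71 results for named genes, together with the family's median 8 h ratios at a pseudocount of 1, gave 389 values. Of these 3 turned sign, with TMM scaling: ZNF207 to 0.048, ZNF326 to 0.029 and ZNF428 to 0.060 log2 per hour. Another 40 no longer passed, 30 over time levels, 7 with TMM scaling and 3 with only the arms compared, and the labelled slope of ZNF90 passed with TMM scaling. Leaving out 1 library turned none of 710 and took 25 past the threshold to the other side. The median member had 15.5 labelled reads at 8 h of DMSO, and each condition has 1 library.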
